A study of Caenorhabditis elegans with 36 samples.

Results

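The interaction of ultraviolet light (UV) with the daf-2 mutation is the UV response of daf-2 larvae minus that of wild-type N2 larvae of Caenorhabditis elegans. It was taken on the log2 scale as daf-2 UV minus daf-2 untreated, less N2 UV minus N2 untreated. It rests on 12 of the 36 arrays of the series, with 3 arrays in each of 4 groups: UV-exposed daf-2 larvae, untreated daf-2 larvae, UV-exposed N2 larvae and untreated N2 larvae. The other arrays hold daf-16 and daf-2;daf-16 larvae and starved larvae. All larvae had been synchronized and kept on food for 4 h before treatment, and were harvested 6 h after it. Untreated larvae were mock treated, per the design text, which names the first larval stage (L1) for the wild type and only larvae for the mutants. Neither the daf-2 allele nor the UV dose is given in the sources used here. Total RNA of whole larvae was hybridized to single-colour Affymetrix arrays. The labels do not tell whether replicate arrays stem from separate cultures, so p-values measure the spread between samples, which may be technical. Standard errors and p-values come from a fit to all 36 arrays. They therefore also carry the spread within the groups outside these 4, some of which held arrays that stood apart. With 3 arrays in a group, precision is limited throughout.

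daf-2 encodes the worm's insulin/IGF-1 receptor. Reduced receptor activity lets the FoxO transcription factor DAF-16 enter nuclei, slows larval growth, favours dauer formation and raises resistance to many stresses. UV leaves bulky lesions in DNA that block transcription and replication and are removed by nucleotide excision repair. Larvae at these ages grow between molts, in which the epidermis builds a new collagen cuticle and its apical matrix, and genes for that work are switched on and off in every molting cycle.

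The comparison addresses which transcripts take another UV response when the insulin receptor is impaired. Of 22548 probe sets, 1050 (4.66%) had an interaction with an adjusted p under 0.05 in limma, which is what "called" means throughout. Levels are log2 signals, responses and interactions are log2 differences, and ± gives the standard error. A positive interaction means that the UV response was higher in daf-2 than in N2, and a negative one that it was lower. The interaction was higher for 471 probe sets (2.09%) and lower for 579 (2.57%), and 437 differed at least 2-fold, 212 of them higher and 225 lower. For comparison, UV itself changed 5629 probe sets in daf-2 (25%) and 6496 in N2 (28.8%). The median standard error of the interaction was 0.163 on the log2 scale, and 0.196 over called probe sets. Of the 1050, 999 had responses that did not overlap for any choice of arrays, against 10.3% of all probe sets.

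**Figure D1:**
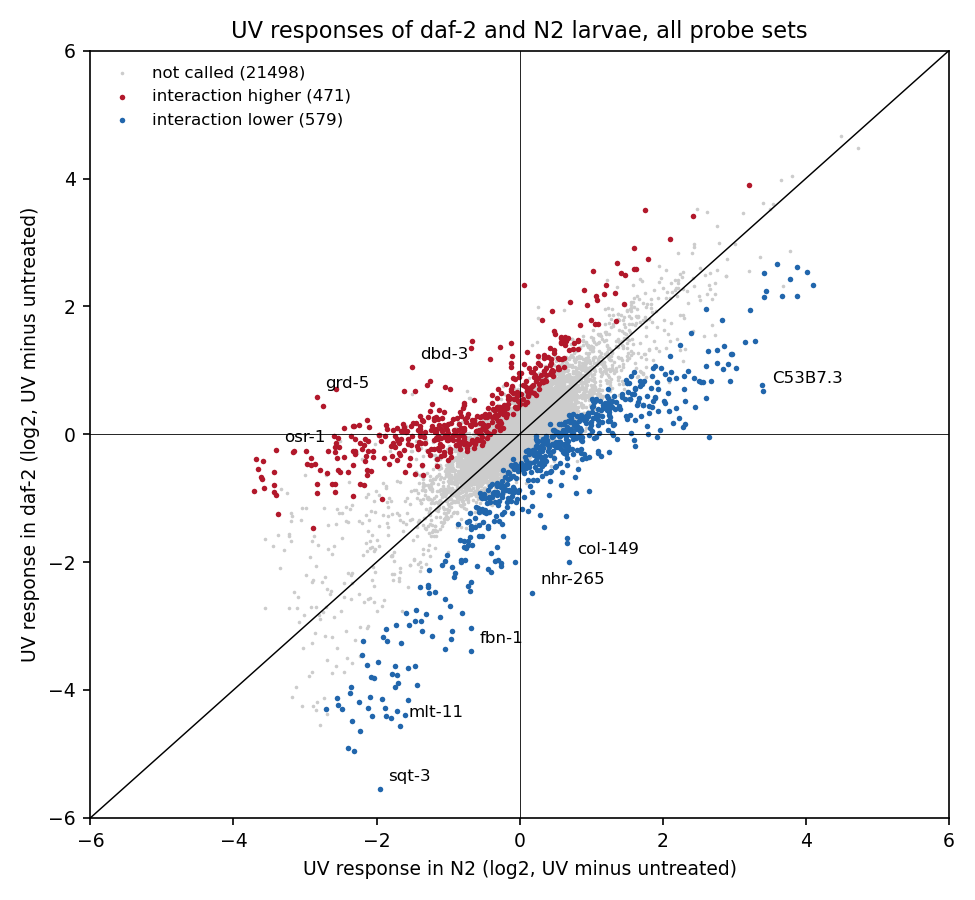
UV response of each probe set in N2 (x axis) and in daf-2 (y axis), both in log2 units, with UV minus untreated as the difference of means of 3 arrays each. Red points are the 471 probe sets with a higher interaction, blue points the 579 with a lower one and grey points the 21498 that were not called; the largest differences lie below the diagonal where both strains fall, and along the left where N2 falls and daf-2 stays near 0.

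The called probe sets took a few shapes. Among the 471 with a higher interaction, the mean rose in daf-2 and fell in N2 for 189, fell in both but less in daf-2 for 164, and rose in both but more in daf-2 for 118. In 264 of them only the N2 response was itself called, in 90 only that of daf-2 and in 115 both. Among the 579 with a lower interaction, the mean rose in both but less in daf-2 for 208, fell in both but more in daf-2 for 194, and fell in daf-2 while it rose in N2 for 177. Both strains' responses were called for 295 of these. Responses that were called in both strains with opposite signs were few, 19 among the higher and 36 among the lower.

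In each direction the group whose mean lay farthest from that of the other 3 was most often untreated N2. It was the highest group for 243 of the 471 (51.6%) and the lowest for 278 of the 579 (48%). UV-exposed daf-2 larvae stood apart as the lowest group for 154 of the 579 and as the highest for 91 of the 471. The gene groups below are described by which of the 4 groups of arrays stood apart.

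Genes of the molting cycle and the apical matrix were prominent among those with the lowest interactions. Of 47 measured genes of that list, 15 had a lower interaction and 5 a higher one, a share of 42.6% called, against 5.08% of all 17118 genes (2.31% higher and 2.77% lower). Here and in the other lists each gene is read from its brightest probe set. In 12 of the 15, UV-exposed daf-2 larvae were the lowest group, and all 12 fell after UV in both strains and further in daf-2. UV lowered 25 of the 47 in daf-2 and 31 in N2, where 12.8% and 15.6% of all genes fell. It raised 3 in daf-2 and 5 in N2, where 13% and 14.2% of all genes rose. The median UV response of the 47 was -0.55 in daf-2 and -1.23 in N2, so by the median the list fell less in daf-2. Their median interaction was -0.17, against -0.008 over all genes, with 31 negative and 16 positive values.

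The cuticle collagen gene sqt-3 had the most negative interaction among called probe sets with a single gene symbol and responses that did not overlap, a choice that also applies to the other lowest and highest genes below. Its log2 signal was 6.70, 5.62 and 4.98 in UV-exposed daf-2 larvae, against 11.02, 11.38 and 11.56 in untreated daf-2 larvae, and 11.51, 11.09 and 11.84 in UV-exposed N2 larvae, against 13.25, 13.43 and 13.62 in untreated N2 larvae. The UV-exposed daf-2 arrays lay far below all others, and the untreated N2 arrays above them. The fall after UV was 46.9-fold in daf-2 and 3.87-fold in N2, an interaction of -3.60 ± 0.51 (SE, adjusted p = 2.3e-05). A second sqt-3 probe set, brighter and marked as shared between transcripts, read 12.75, 12.75, 12.78 and 13.31 on average in the same order of groups, with an interaction of 0.53 ± 0.21 (adjusted p = 0.196), so the 2 probe sets disagree.

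lpr-4, which encodes a lipocalin-related protein of the apical matrix, had a log2 signal of 7.28, 6.79 and 5.44 in UV-exposed daf-2 larvae, against 11.45, 11.46 and 11.47 in untreated daf-2 larvae. In N2 it was 10.30, 9.65 and 10.56 after UV, against 12.41, 12.53 and 12.53 without. No group overlapped another. It fell 31-fold in daf-2 and 4.99-fold in N2, with an interaction of -2.63 ± 0.53 (adjusted p = 1.7e-03).

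fbn-1, a fibrillin-like matrix gene, had log2 signals of 6.69, 6.33 and 5.54 in UV-exposed daf-2 larvae, against 9.50, 9.68 and 9.55 in untreated daf-2 larvae, and 8.11, 7.57 and 8.32 in UV-exposed N2 larvae, against 9.0, 8.74 and 8.29 in untreated N2 larvae. In N2 the 2 groups overlapped by a single array, and in daf-2 they were far apart. The interaction was -2.71 ± 0.29 (adjusted p = 3.8e-07), from a 10.5-fold fall in daf-2 and a 1.6-fold fall in N2.

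The protease-inhibitor-like molting gene mlt-11 and the warthog gene wrt-10, a hedgehog-related gene, followed the same order of groups as lpr-4. mlt-11 had log2 signals of 8.02, 7.25 and 5.26 in UV-exposed daf-2 larvae, against 11.26, 11.49 and 11.45 in untreated ones, and 10.56, 9.86 and 10.68 in UV-exposed N2 larvae, against 11.98, 12.12 and 12.02 in untreated ones (interaction -2.89 ± 0.54, adjusted p = 7.6e-04). For wrt-10 the means were 7.84 and 12.24 in daf-2, and 10.94 and 12.53 in N2 (interaction -2.80 ± 0.51, adjusted p = 6.0e-04). In both genes the third UV-exposed daf-2 array lay lowest, at 5.26 for mlt-11 and 6.37 for wrt-10, whose other two arrays of that group read 8.85 and 8.30. The same array was lowest for sqt-3, lpr-4 and fbn-1. It was also lowest in the mean of the molting and apical matrix list, at 6.32, against 6.73 and 6.54 on the first and second.

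The remaining genes of this kind also fell in both strains and further in daf-2. noah-1 and noah-2, which encode zona pellucida domain matrix proteins, had interactions of -1.92 and -2.21, and let-653, of the same domain class, -1.53. The leucine-rich repeat genes sym-1 and let-4 stood at -2.17 and -2.1, the lipocalin-related genes lpr-3 and lpr-1 at -2.53 and -1.48, mlt-8 at -1.38 and the patched-related gene ptr-4 at -1.73. For let-4, lpr-3, mlt-11 and fbn-1 another probe set of the gene gave the stronger value that placed it among the 15 lowest, at -2.64 for let-4 and -2.60 for lpr-3. lpr-5 (-2.34) and the cadherin gene cdh-7 (-2.49), outside the list, belonged to the same 15.

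Members of the list that moved otherwise were mup-4, an epidermal attachment gene, and mlt-7, a peroxidase gene. Both rose after UV in each strain but less in daf-2, where the untreated level was higher than in N2, with interactions of -1.51 and -1.37. A second mup-4 probe set was not called in limma (-1.37 ± 0.43, adjusted p = 0.059). dpy-6, a mucin-like gene, fell in daf-2 and rose in N2 (-1.94). The 5 members with a higher interaction were bah-1 (3.11), ptr-18 (2.55), the mucin-like gene osm-8 (2.43), mlt-10 (1.15) and the NIMA-related kinase gene nekl-2 (0.57). In all 5 untreated N2 was the highest group. The 5 were 3 without the second or the third array of untreated N2, the third of UV-exposed daf-2 or the first of untreated daf-2, and the 15 were 9 without probe sets shared between transcripts.

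Of 13 regulators of the molting cycle 2 had a lower interaction, nhr-23 and myrf-1, 1 had a higher one, nhr-8, and 10 were not called. nhr-23, a nuclear receptor that times molts, had log2 signals of 8.05, 7.86 and 7.69 in UV-exposed daf-2 larvae, against 9.31, 9.25 and 9.23 in untreated daf-2 larvae, and 8.45, 8.25 and 8.52 in UV-exposed N2 larvae, against 8.78, 8.75 and 8.42 in untreated N2 larvae. It was lowest in UV-exposed daf-2 larvae and highest in untreated daf-2 larvae, and in N2 the groups overlapped (interaction -1.15 ± 0.17, adjusted p = 5.7e-05). myrf-1, a membrane-bound transcription factor of larval development, fell 3.32-fold in daf-2 and 1.64-fold in N2 (interaction -1.01 ± 0.17, adjusted p = 2.9e-04). nhr-8 is a nuclear receptor gene (0.40).

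The mean log2 level of the molting and apical matrix list was 6.32 to 6.73 in UV-exposed daf-2 arrays, against 7.97 to 8.02 in untreated daf-2 arrays, and 7.45 to 7.79 in UV-exposed N2 arrays, against 8.64 to 8.74 in untreated N2 arrays. The 17 measured epidermis markers averaged 8.65 to 8.75 and 8.98 to 9.02 in the same daf-2 groups, and 9.01 to 9.18 and 9.33 to 9.41 in the N2 groups. Of these markers 2 had a lower interaction, dpy-7 and mup-4, and 1 a higher one, dpy-13, and all 3 are also cuticle or attachment genes. In RNA of whole larvae, fewer cells of a type and less RNA per cell cannot be told apart. The control probe sets at the 3' end of Gapdh exceeded those at the 5' end by 0.36 to 0.45 and 0.29 to 0.55 in UV-exposed and untreated daf-2 arrays, and by 0.47 to 0.84 and 0.73 to 0.91 in the N2 arrays. For actin this excess was 0.87 to 1.12 in UV-exposed and 0.63 to 0.79 in untreated daf-2 arrays, without overlap. In the N2 arrays it was 0.77 to 0.93 and 0.68 to 0.95. For ubiquitin it was 4.86 to 4.92 and 4.88 to 5.11 in daf-2, and 4.89 to 4.91 and 4.75 to 4.95 in N2. The part of these measures of RNA quality in the results was not tested.

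**Figure D2:**
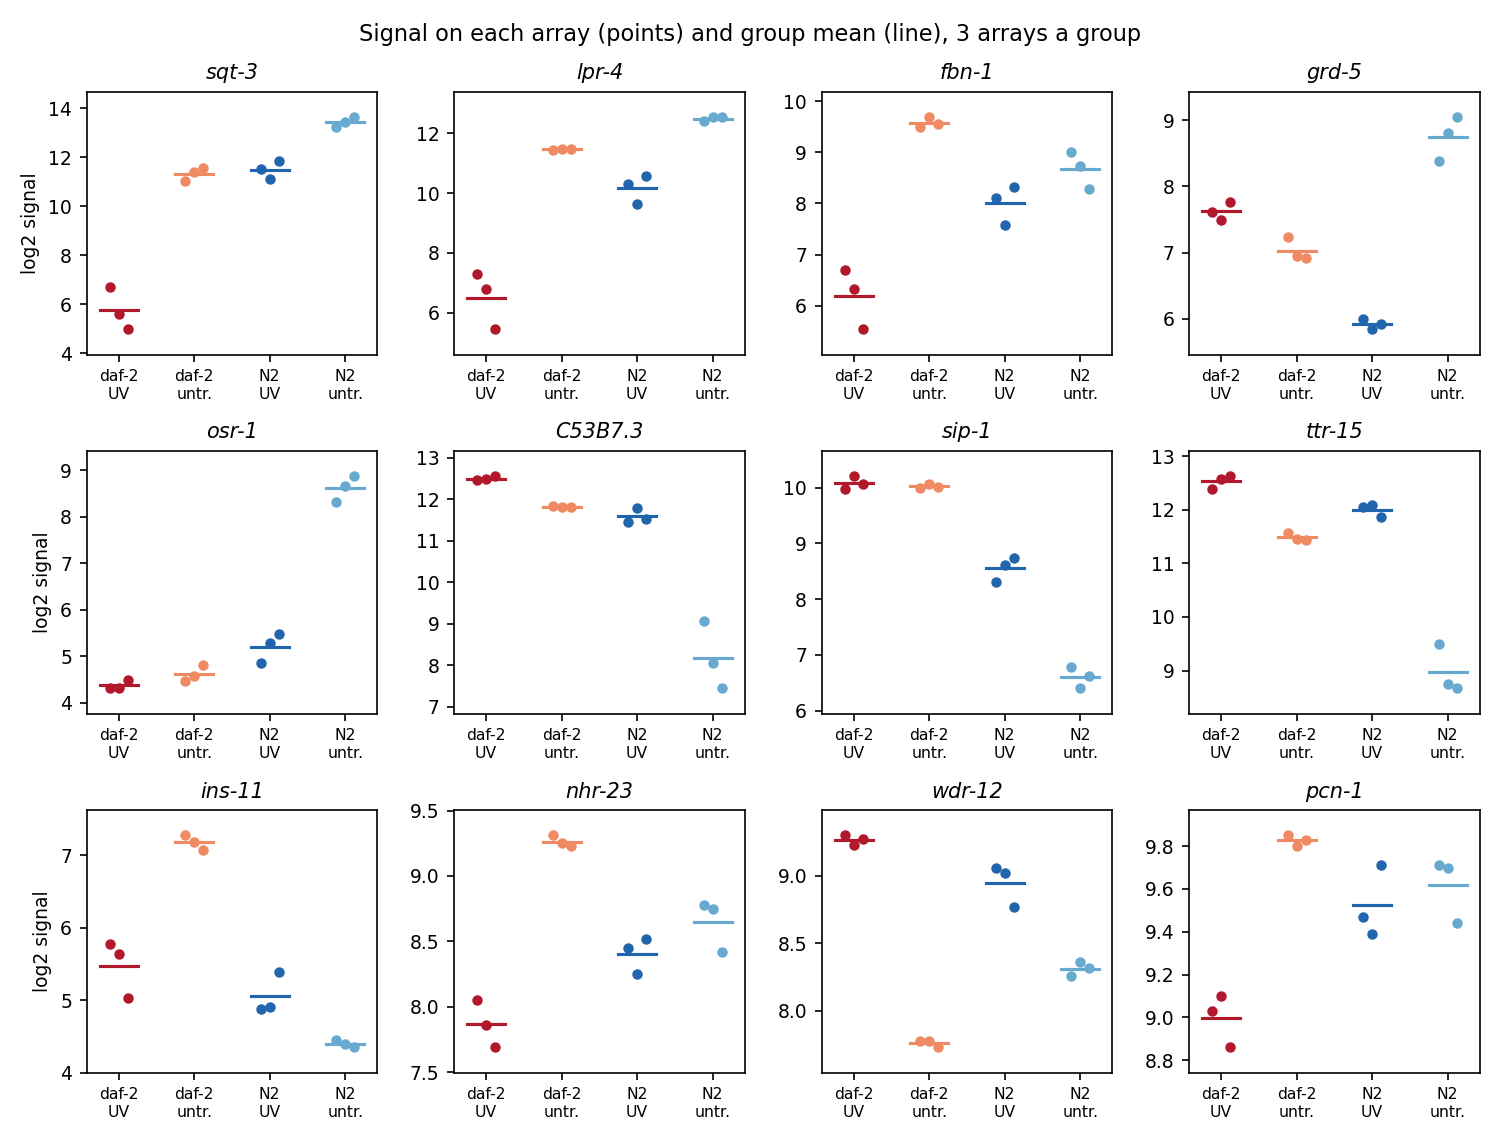
Log2 signal on each of the 12 arrays (points) with the mean of each group (bars) for 12 genes, with UV-exposed daf-2, untreated daf-2, UV-exposed N2 and untreated N2 larvae from left to right in each panel. sqt-3, lpr-4 and fbn-1 are lowest in UV-exposed daf-2 larvae, grd-5 and osr-1 are highest in untreated N2 larvae, and C53B7.3, sip-1 and ttr-15 are lowest in untreated N2 larvae.

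The called cuticle collagens differed in which of the 4 groups stood apart. Of 146 measured, 18 had a lower interaction and 11 a higher one (19.9% called), and the median over all 146 was -0.01, against -0.008 over all genes. The furrow collagens dpy-2, dpy-3, dpy-7, dpy-8 and dpy-9 fell in both strains and further in daf-2, with interactions of -2.14, -1.78, -2.01, -1.95 and -1.58. dpy-7 averaged 7.17 in UV-exposed and 11.28 in untreated daf-2 larvae, and 10.07 and 12.16 in the N2 groups. With col-128 (-1.69) these were the 6 called collagens of the list that were lowest in UV-exposed daf-2 larvae. sqt-3 is not among them, since its brightest probe set was not called. dpy-10 was not among the measured collagens.

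In 11 collagens, by contrast, untreated N2 was the lowest group, and UV raised the transcript more in N2. col-103 averaged 12.18 in UV-exposed and 11.61 in untreated daf-2 larvae, and 11.47 and 8.86 in the N2 groups (interaction -2.04 ± 0.27, adjusted p = 1.0e-05). col-176 (-1.97), col-159 (-1.76), col-98 (-1.75), col-160 (-1.69) and col-39 (-1.49) were of this kind.

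col-149 differed from both kinds. Its log2 signal was 11.31, 10.85 and 10.75 in UV-exposed daf-2 larvae, against 13.02, 12.96 and 12.92 in untreated daf-2 larvae, and between 11.66 and 12.02 in UV-exposed N2 larvae, against 11.45, 11.20 and 10.97 in untreated N2 larvae. Untreated daf-2 was the highest group, and UV-exposed daf-2 overlapped untreated N2 at the low end. It fell in daf-2 and rose in N2 (interaction -2.68 ± 0.26, adjusted p = 5.1e-08). A second, much dimmer col-149 probe set averaged 4.05, 4.65, 4.27 and 4.26 in the same order of groups. Its interaction was not called in limma (-0.61 ± 0.19, adjusted p = 0.061).

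Among the 11 collagens with a higher interaction, untreated N2 was the highest group in 10. They include col-41 (2.23), col-48 (1.56), col-17 (1.55), dpy-4 (1.35) and dpy-13 (0.79). col-41 averaged 7.40 in UV-exposed and 7.46 in untreated daf-2 larvae, where the change was not called (-0.07, adjusted p = 0.946), and it fell by 2.3 on the log2 scale in N2. Many collagen probe sets are shared by several transcripts, and without shared probe sets 9 collagens were lower and 3 higher. The count of 11 was 6 or fewer when any of 9 arrays was left out, all but the first array of untreated N2, the first of UV-exposed daf-2 and the third of UV-exposed N2, and it was 4 without the third array of untreated N2.

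Hedgehog-related and patched-related genes, many of which are active in the epidermis at molts, included grd-5, which had the most positive interaction. Of 81 measured, 13 had a higher interaction and 10 a lower one (28.4% called), with a median of 0.03. Untreated N2 was the highest group for 12 of the 13. grd-5 (groundhog) had log2 signals of 7.61, 7.49 and 7.77 in UV-exposed daf-2 larvae, against 7.23, 6.95 and 6.91 in untreated daf-2 larvae, and 6.00, 5.84 and 5.92 in UV-exposed N2 larvae, against 8.38, 8.81 and 9.04 in untreated N2 larvae. No group overlapped another, with untreated N2 highest and UV-exposed N2 lowest. It fell 7.09-fold in N2, the change in daf-2 was not called (0.59, adjusted p = 0.397), and the interaction was 3.42 ± 0.62 (adjusted p = 6.0e-04).

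The ground-like genes grl-7 (2.84) and grl-15 (2.73) and the patched-related gene ptr-18 were also highest in untreated N2 larvae. Under 21 alternative settings grl-7 stayed called in 10. ptr-18 had log2 signals of 5.50, 5.49 and 5.48 in UV-exposed daf-2 larvae, against 5.38, 5.30 and 5.51 in untreated daf-2 larvae, and 6.20, 6.25 and 6.03 in UV-exposed N2 larvae, against 8.33, 8.66 and 8.86 in untreated N2 larvae. Untreated N2 alone was high, and the daf-2 groups overlapped. The interaction was 2.55 ± 0.50 (adjusted p = 1.3e-03), an error that includes the spread of the other groups. In untreated daf-2;daf-16 larvae, for one, the first array read 7.95, against a mean of 6.09 for replicates 2 and 3. Further members with a higher interaction were grl-2 (1.97), wrt-9 (1.78), ptr-6 (1.68), grl-5 (1.58), wrt-6 (1.57) and ptr-11 (1.33).

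The 10 members with a lower interaction fell into 5 that were lowest in UV-exposed daf-2 larvae (wrt-10, ptr-4, ptr-10, ptr-25 and ptr-1) and 5 that were lowest in untreated N2 larvae (grd-3, grd-10, grl-4, ptr-8 and ptr-23). grd-3 had log2 signals of 11.66, 11.55 and 11.69 in UV-exposed daf-2 larvae, against 11.48, 11.55 and 11.53 in untreated daf-2 larvae, and 10.15, 10.32 and 10.08 in UV-exposed N2 larvae, against 8.35, 7.64 and 7.71 in untreated N2 larvae. The daf-2 groups touched at a high level, and N2 was lower, most of all without UV (interaction -2.17 ± 0.33, adjusted p = 5.7e-05). The count of 13 higher members was 7 without the second or the third array of untreated N2 or the third of UV-exposed daf-2, and 8 without the first or the third of untreated daf-2. Without shared probe sets it was 8, with 4 lower.

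**Figure D3:**
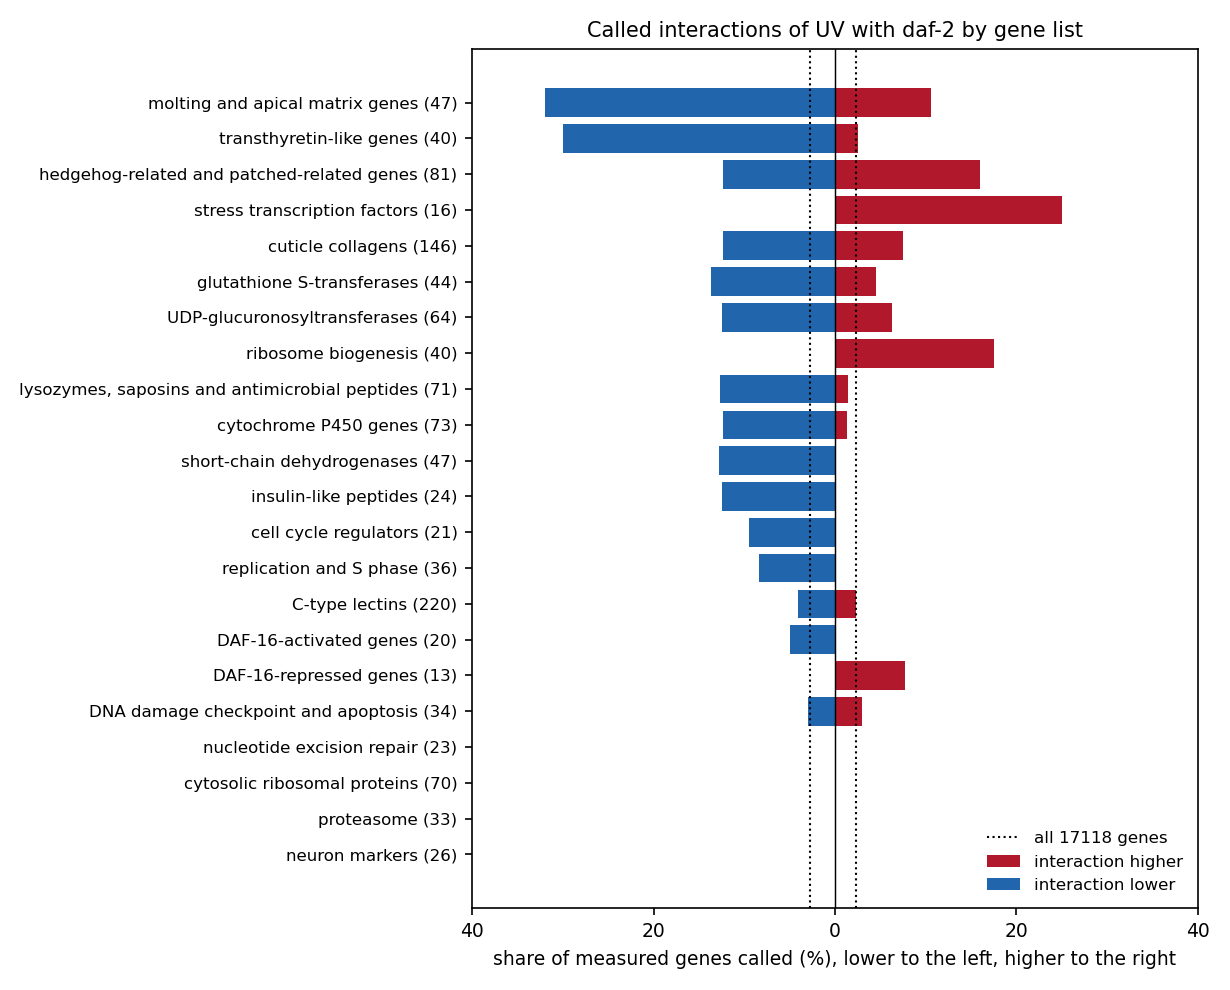
Share of the measured genes of each list with a lower interaction (bars to the left) and with a higher one (bars to the right), in percent. The dotted lines mark the shares over all 17118 genes, 2.77% lower and 2.31% higher, and molting and apical matrix genes extend farthest to the left.

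The 15 most positive interactions, 2.56 to 3.42, shared 1 form. Untreated N2 was the highest group in all 15, and the N2 fall after UV (-3.72 to -1.51 on the log2 scale) was called in all 15. The daf-2 response lay between -0.88 and 1.05 and was called in 1, dbd-3 (1.05). osr-1, known from the response to osmotic stress, had log2 signals of 4.32, 4.31 and 4.49 in UV-exposed daf-2 larvae, against 4.47, 4.57 and 4.81 in untreated daf-2 larvae, and 4.86, 5.29 and 5.47 in UV-exposed N2 larvae, against 8.32, 8.66 and 8.87 in untreated N2 larvae. Only the untreated N2 arrays were high, and the daf-2 groups overlapped at the low end of the scale (interaction 3.17 ± 0.74, adjusted p = 7.4e-03).

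Beside grd-5, grl-7, grl-15, bah-1, osr-1 and dbd-3 these 15 were elf-1 (3.30), T01D1.4 (3.29), the ligand-gated ion channel gene lgc-22 (3.20), F33D4.6 (3.17), srlf-4 (2.88), Y53F4B.27 (2.84), bus-24 (2.74), T06G6.6 (2.64) and pqn-13 (2.57), which encodes a glutamine- and asparagine-rich protein. In 9 of the 15 both daf-2 means lay below 5.79, the lowest median of any array, where a probe set has little room to fall. The same held for 33.1% of the 471 higher probe sets, 6.56% of the 579 lower ones and 47.6% of all probe sets. In these 9 genes a small response and a signal too low to show one cannot be told apart.

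A further set of genes was lowest in untreated N2 larvae and higher in untreated daf-2 larvae. C53B7.3 had the most negative interaction of this kind. Its log2 signal was 12.46, 12.48 and 12.55 in UV-exposed daf-2 larvae, against 11.83, 11.82 and 11.82 in untreated daf-2 larvae, and 11.46, 11.78 and 11.52 in UV-exposed N2 larvae, against 9.06, 8.04 and 7.44 in untreated N2 larvae. No group overlapped another, and untreated N2 stood far below. It rose 1.59-fold in daf-2 and 10.6-fold in N2 (interaction -2.73 ± 0.36, adjusted p = 7.3e-06).

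sip-1, which encodes a small heat shock protein and is on the list of genes activated by DAF-16, had log2 signals of 9.98, 10.20 and 10.06 in UV-exposed daf-2 larvae, against 9.99, 10.06 and 10.01 in untreated daf-2 larvae, and 8.31, 8.62 and 8.74 in UV-exposed N2 larvae, against 6.78, 6.40 and 6.63 in untreated N2 larvae. The daf-2 groups overlapped at the high level, and the N2 groups did not overlap. The rise in N2 was 3.88-fold and the daf-2 change was not called (0.06, adjusted p = 0.812), for an interaction of -1.89 ± 0.18 (adjusted p = 5.7e-08). It was the only called gene of the 20 activated by DAF-16 that were measured (5%), which is about the 5.08% of all genes, and 8 of the 20 had an unadjusted p under 0.05 in limma, 3 higher and 5 lower. With array weights 2 were higher and 3 lower, with the 12 arrays alone or without the 3 arrays of other groups that stood apart 2 and 2, and 2 were lower without the third array of untreated N2 or the first of UV-exposed N2. The superoxide dismutase gene sod-3 (-0.55 ± 0.18, adjusted p = 0.087) and the metallothionein gene mtl-1 (-0.58 ± 0.28, adjusted p = 0.337) were not called. Over the alternative settings the adjusted p of sod-3 ranged from 4.5e-03 to 0.275.

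Transthyretin-like genes, a nematode family of secreted proteins, were often of this shape. Of 40 measured, 12 had a lower interaction and 1, ttr-54 (0.85), a higher one (32.5% called), and untreated N2 was the lowest group for 9 of the 12. ttr-15 had log2 signals of 12.38, 12.58 and 12.62 in UV-exposed daf-2 larvae, against 11.57, 11.45 and 11.43 in untreated daf-2 larvae, and 12.05, 12.09 and 11.86 in UV-exposed N2 larvae, against 9.50, 8.75 and 8.67 in untreated N2 larvae. UV raised it 2.06-fold in daf-2 and 8.16-fold in N2, with no overlap between groups (interaction -1.99 ± 0.23, adjusted p = 1.7e-06). ttr-21 (-1.80), ttr-8 (-1.43) and ttr-2 (-1.09) were also lowest in untreated N2, whereas ttr-27, ttr-22 and ttr-31 were highest in untreated daf-2 larvae and fell there.

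In 3 families of detoxification genes more members were called on the lower side than on the higher, a lean that was weak in the UDP-glucuronosyltransferases. Of 44 glutathione S-transferase genes 6 were lower and 2 higher (18.2%), and in all 6 untreated N2 was the lowest group. gst-20 averaged 12.32 in UV-exposed and 11.11 in untreated daf-2 larvae, and 11.24 and 9.14 in the N2 groups (interaction -0.88 ± 0.21, adjusted p = 9.7e-03). gst-14 had -1.24. The 2 higher members were gst-21 (1.24) and gst-30 (0.64), of which neither was called without the second array of UV-exposed N2 and 1 without any of 8 others (the first or the third of UV-exposed N2, the first or the third of untreated N2, the first or the third of UV-exposed daf-2 and the first or second of untreated daf-2).

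Of 73 cytochrome P450 genes, which oxidize lipids and foreign compounds, 9 were lower and 1, cyp-13A2, higher (13.7%). No member was higher without the third array of untreated N2, the third of UV-exposed N2 or the second or the third of UV-exposed daf-2, and 2 were higher without the first of UV-exposed N2. In 6 of the 9, among them cyp-29A4 (-1.32), cyp-14A1 (-0.89) and cyp-35B1 (-0.86), untreated daf-2 was the highest group and UV lowered the transcript there. Of 64 UDP-glucuronosyltransferase genes, which attach sugars to such compounds, 8 were lower and 4 higher (18.8%), led by ugt-57 (-1.47) and ugt-13 (-1.45) on the one side and ugt-59 (1.43) and ugt-41 (0.97) on the other. The 8 were 3 without the second array of untreated N2 or the second of UV-exposed daf-2, 4 without the third of untreated N2 or the second of untreated daf-2, and 5 without the second of UV-exposed N2, the first of UV-exposed daf-2 or the first of untreated daf-2. The 4 were 2 without the second of UV-exposed N2, the third of untreated N2, the second of UV-exposed daf-2 or the third of untreated daf-2. The median interaction of the 64 genes was -0.01, with 30 positive and 34 negative values. Of 28 genes of oxidative stress defence 3 were lower and none higher (10.7%), among them the glutathione peroxidase genes gpx-3 (-1.53) and gpx-6 (-0.46), with untreated N2 the lowest group. Of 51 ABC transporter genes pgp-14 (-1.72) and pgp-10 (-1.09) were lower and none higher (3.92%), below the 5.08% of all genes.

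Insulin-like peptide genes that were called were all highest in untreated daf-2 larvae. Of 24 measured, 3 had a lower interaction and none a higher one (12.5%). ins-11 had log2 signals of 5.77, 5.63 and 5.03 in UV-exposed daf-2 larvae, against 7.27, 7.18 and 7.07 in untreated daf-2 larvae, and 4.88, 4.90 and 5.39 in UV-exposed N2 larvae, against 4.45, 4.39 and 4.35 in untreated N2 larvae. The UV-exposed groups of both strains overlapped, while untreated daf-2 was the highest group and untreated N2 the lowest. It fell 3.25-fold in daf-2 and rose 1.58-fold in N2 (interaction -2.36 ± 0.21, adjusted p = 2.5e-08).

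ins-33 had log2 signals of 8.56, 8.35 and 7.90 in UV-exposed daf-2 larvae, against 10.29, 10.19 and 10.32 in untreated daf-2 larvae, and 6.38, 6.19 and 6.45 in UV-exposed N2 larvae, against 7.06, 7.17 and 7.26 in untreated N2 larvae. Both strains fell, daf-2 further, and daf-2 stayed above N2 in each condition (-1.17 ± 0.26, adjusted p = 5.4e-03). The third was ins-35 (-0.57). A nuclear receptor gene outside this family, nhr-265, was also highest in untreated daf-2 larvae and fell there. Its means were 5.46 and 7.94 in the UV-exposed and untreated daf-2 groups, and 5.88 and 5.70 in the N2 groups (interaction -2.66 ± 0.25, adjusted p = 5.1e-08).

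Of the 19 measured genes of the insulin and FoxO pathway itself, 1 was called (5.26%), close to the share over all genes. It was ist-1, the homolog of insulin receptor substrates, which fell 2.27-fold in N2 while the daf-2 change was not called (0.04, adjusted p = 0.935), with an interaction of 1.22 ± 0.32 (adjusted p = 0.021). The probe sets of the genes mutated in the series and of egl-27, a GATA-domain gene linked to DAF-16, were not called. daf-2 itself averaged 5.10 in UV-exposed and 5.11 in untreated daf-2 larvae, and 5.18 and 5.04 in the N2 groups (interaction -0.15 ± 0.21, adjusted p = 0.842). This is below the lowest array median, and nothing in the labels says that the mutation removes the transcript, so it checks no label. daf-16 (-0.06 ± 0.14, adjusted p = 0.924) and egl-27 (0.11 ± 0.12, adjusted p = 0.782) were measured well above it. The adjusted p of all 3 came from the fit over all probe sets.

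Most genes for ribosome biogenesis rose after UV in each strain, and some rose more in daf-2. Of 40 measured, 7 had a higher interaction and none a lower one (17.5%), 37 had a positive value and the median was 0.35, against -0.008 over all genes. UV raised 32 of the 40 in daf-2 (13% of all genes rose there) and 22 in N2 (14.2% of all genes). wdr-12, a ribosome assembly gene, had log2 signals of 9.3, 9.23 and 9.27 in UV-exposed daf-2 larvae, against 7.78, 7.78 and 7.73 in untreated daf-2 larvae, and 9.06, 9.02 and 8.77 in UV-exposed N2 larvae, against 8.26, 8.36 and 8.32 in untreated N2 larvae. No group overlapped another, and untreated daf-2 was the lowest (interaction 0.87 ± 0.16, adjusted p = 9.2e-04).

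The others were nol-16 (0.86), the dyskerin gene dkc-1 (0.67), the fibrillarin gene fib-1 (0.62), ngp-1 (0.58), nol-58 (0.49) and pro-1 (0.49). In 6 of the 7 untreated daf-2 was the group that stood apart, as the lowest. fib-1, for one, averaged 12.41 in UV-exposed and 11.78 in untreated daf-2 larvae, and 12.36 in both N2 groups. The count of 7 was 4 when any of 8 arrays was left out, the third of UV-exposed N2, the second or the third of untreated N2, any of UV-exposed daf-2 and the second or the third of untreated daf-2. It was 15 without 3 arrays of other groups that stood apart from their groups, and 3 without shared probe sets. Of 70 cytosolic ribosomal protein genes none was called in limma and 2 had an unadjusted p under 0.05, with interactions between -0.08 and 0.14.

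Interactions of DNA replication genes were mostly negative. Of 36 measured, 3 had a lower interaction and none a higher one (8.33% called, against 5.08% of all genes, 2.77% lower). A negative value was found for 34, and the median was -0.30. UV lowered 26 of the 36 in daf-2 (12.8% of all genes fell there) and 8 in N2 (15.6% of all genes). pcn-1, the sliding clamp PCNA, had log2 signals of 9.03, 9.10 and 8.86 in UV-exposed daf-2 larvae, against 9.85, 9.80 and 9.83 in untreated daf-2 larvae, and 9.47, 9.39 and 9.71 in UV-exposed N2 larvae, against 9.71, 9.70 and 9.44 in untreated N2 larvae. UV-exposed daf-2 was the lowest group and the N2 groups overlapped (interaction -0.74 ± 0.17, adjusted p = 6.4e-03).

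rnr-1, a ribonucleotide reductase subunit gene (-0.57), and mcm-4, a replicative helicase subunit gene (-0.55), were the others, also lowest in UV-exposed daf-2 larvae. The count of 3 was 1 when any of 7 arrays was left out, the third of UV-exposed N2, the second or the third of untreated N2, the second or the third of UV-exposed daf-2 and the first or second of untreated daf-2. It was 6 without the first array of UV-exposed daf-2, 1 with median centring, 0 without shared probe sets and 11 without the 3 arrays of other groups. Of 21 cell cycle regulators 2 had a lower interaction and none a higher one (9.52%, against 5.08% of all genes). The kinase gene cdk-1 (-0.55) was also lowest in UV-exposed daf-2 larvae, and the kinase inhibitor gene cki-1 (-0.68) was lowest in untreated N2. A second cki-1 probe set was not called in limma (-0.49 ± 0.15, adjusted p = 0.059). With any of 10 arrays left out, all but the second arrays of both UV-exposed groups, 1 of the 2 cell cycle regulators was called.

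**Figure D4:**
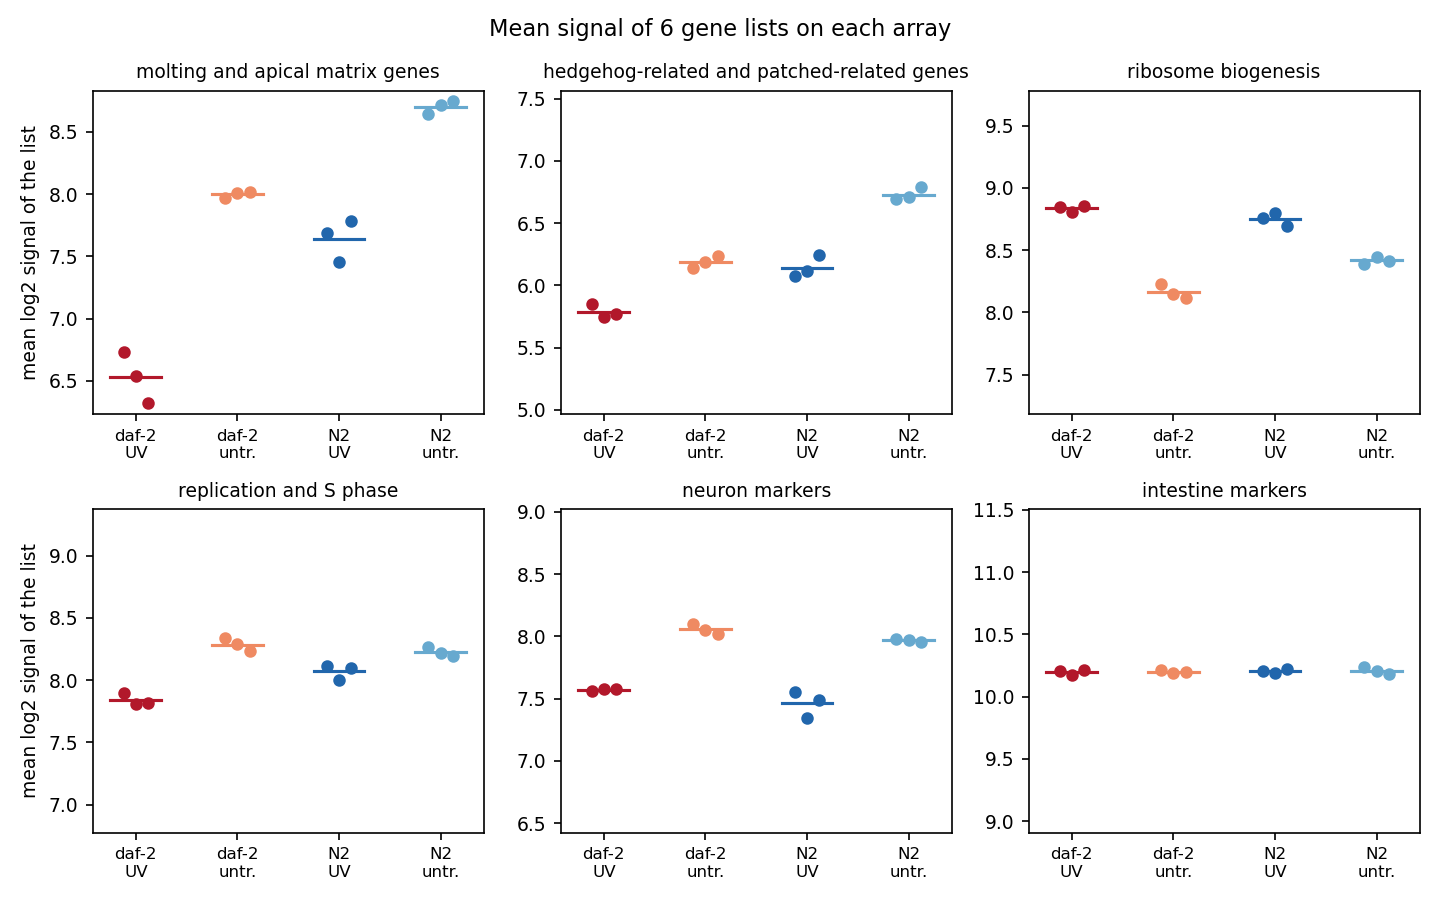
Mean log2 signal over the measured genes of 6 lists on each of the 12 arrays, with UV-exposed daf-2, untreated daf-2, UV-exposed N2 and untreated N2 larvae from left to right. Molting and hedgehog-related genes are lowest in UV-exposed daf-2 larvae, ribosome biogenesis is lowest in untreated daf-2 larvae, replication is lowest in UV-exposed daf-2 larvae, neuron markers are lower after UV in both strains and intestine markers stay between 10.17 and 10.24.

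Genes of DNA repair and damage signalling were called at 0% and 5.88%, where 5.08% of all genes were. None of 23 measured nucleotide excision repair genes was called in limma and 1 had an unadjusted p under 0.05, with interactions between -0.31 and 0.36 and a lowest adjusted p of 0.267. The damage recognition genes xpc-1 (-0.08 ± 0.12, adjusted p = 0.855) and xpa-1 (0.27 ± 0.16, adjusted p = 0.487) were among them. Of 34 genes of the DNA damage checkpoint and apoptosis, egl-1 was higher and ung-1, a uracil-DNA glycosylase gene, lower (-0.83 ± 0.19, adjusted p = 5.6e-03).

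egl-1, which encodes a pro-apoptotic BH3 protein, had log2 signals of 5.50, 5.37 and 5.34 in UV-exposed daf-2 larvae, against 4.62, 4.59 and 4.67 in untreated daf-2 larvae, and 5.25, 5.23 and 5.21 in UV-exposed N2 larvae, against 4.95, 5.14 and 5.04 in untreated N2 larvae. The groups did not overlap, but all lie below the lowest array median, and untreated daf-2 was the lowest (interaction 0.59 ± 0.15, adjusted p = 0.017). It was not called without the second array of untreated N2 or the first of UV-exposed daf-2. The p53 homolog cep-1 (-0.03 ± 0.13, adjusted p = 0.964) and the checkpoint kinase gene atl-1 (0.30 ± 0.13, adjusted p = 0.258) were not called. atl-1 rose in both strains, by 0.84 in daf-2 and 0.54 in N2.

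Of 16 stress transcription factor genes 4 had a higher interaction and none a lower one (25%). They were atfs-1 (0.52), a factor of the mitochondrial unfolded protein response, wdr-23 (0.51), which restrains the oxidative stress factor SKN-1, nhr-8 (0.40) and aha-1 (0.39), a partner of the hypoxia factor. All 4 were under 2-fold. None was called without the second array of untreated N2 or the third of untreated daf-2, 2 were called when any of 5 other arrays was left out (the second or the third of UV-exposed N2, the third of untreated N2 and the first or second of UV-exposed daf-2), and 1 without shared probe sets.

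Of 71 genes for lysozymes, saposins and antimicrobial peptides 9 were lower and 1, ilys-4, higher (14.1%). The 9 were 4 without shared probe sets. No member was higher without the second or the third array of untreated N2, the third of UV-exposed N2, the second or the third of untreated daf-2, or the first or the third of UV-exposed daf-2, and 2 were higher without the first of UV-exposed N2. ilys-5, an invertebrate-type lysozyme gene, had log2 signals of 8.64, 8.13 and 8.27 in UV-exposed daf-2 larvae, against 10.62, 10.69 and 10.84 in untreated daf-2 larvae, and 12.32, 12.27 and 12.62 in UV-exposed N2 larvae, against 13.04, 13.24 and 13.09 in untreated N2 larvae. No group overlapped another, daf-2 was below N2 in each condition, and the fall was 5.16-fold in daf-2 and 1.64-fold in N2 (-1.65 ± 0.20, adjusted p = 3.5e-06). lys-4 (-1.29) fell in the same order, whereas nlp-26 (-1.81) and nlp-27 (-0.87), antimicrobial peptide genes, rose in both strains and less in daf-2.

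Of 220 C-type lectin genes 9 were lower and 5 higher (6.36%), close to the 5.08% of all genes. clec-86 rose 3.45-fold in daf-2, where the untreated group was the lowest, with means of 7.34 and 5.55 in the daf-2 groups and 7.26 and 6.94 in the N2 groups (interaction 1.47 ± 0.24, adjusted p = 1.6e-04). clec-45 was highest in UV-exposed N2 larvae, with means of 5.53 and 5.0 in the daf-2 groups, and 7.87 and 5.85 in the N2 groups (-1.49 ± 0.31, adjusted p = 2.9e-03). The 9 lower lectins were 3 to 5 when any of 8 arrays was left out, all but the second of UV-exposed N2, the first of untreated N2, the first of UV-exposed daf-2 and the third of untreated daf-2.

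Of 78 genes for fatty acid breakdown and lipases, the acyl-CoA synthetase genes acs-3 (1.96), acs-20 (1.82) and acs-7 (0.72) were higher, and lipl-1 (-1.40), lipl-2 (-0.95), lipl-4 (-0.80) and acs-14 (-0.35) lower. These 7 were 8.97% of the list, against 5.08% of all genes. acs-3 had log2 signals of 7.36, 7.41 and 7.44 in UV-exposed daf-2 larvae, against 7.53, 7.34 and 7.34 in untreated daf-2 larvae, and 5.85, 5.80 and 6.26 in UV-exposed N2 larvae, against 7.85, 7.95 and 8.0 in untreated N2 larvae. UV-exposed N2 alone was low, and the daf-2 groups overlapped (interaction 1.96 ± 0.40, adjusted p = 2.2e-03). Of 36 lysosomal genes 4 were lower and none higher (11.1%), led by the cathepsin B gene cpr-4 (-1.04), which fell 1.97-fold in daf-2 and was not called in N2. The 4 were 3 to 5 with each array left out in turn, and 2 without shared probe sets. The fatty acid synthase gene fasn-1 fell 2.56-fold in daf-2 and 1.63-fold in N2 (-0.65 ± 0.14, adjusted p = 4.4e-03).

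In the marker lists of other cell types few interactions were called, at shares close to or below the 5.08% of all genes. None of 26 neuron markers had a called interaction in limma and 1 had an unadjusted p under 0.05, although 18 fell after UV in each strain. Their mean log2 level was 7.56 to 7.58 in UV-exposed daf-2 arrays, against 8.02 to 8.10 in untreated daf-2 arrays, and 7.35 to 7.55 in UV-exposed N2 arrays, against 7.95 to 7.98 in untreated N2 arrays. Of 29 muscle markers myo-1 was lower (-0.47), of 17 intestine markers elt-7, an intestinal GATA factor gene, was higher (0.49), and of 24 germ line markers mex-3 was lower (-0.69). A second myo-1 probe set was not called in limma (-0.57 ± 0.18, adjusted p = 0.061). None of 26 sensory cilia markers, 33 proteasome genes, 28 autophagy genes or 22 AMPK and TOR genes was called in limma, and 1, 0, 2 and 3 of them had an unadjusted p under 0.05.

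The UV response of daf-2;daf-16 larvae, which carry mutations in both genes, can be set beside those of daf-2 and N2, with which it shares no array. For the 15 genes with the most positive interaction its median was -0.09 on the log2 scale (-0.48 to 0.46), against -0.26 in daf-2 (-0.88 to 1.05) and -3.41 in N2 (-3.72 to -1.51). The first untreated daf-2;daf-16 array stood apart from the other two, and without it the median was 0.86 (0.18 to 1.64). For the 15 with the most negative interaction the median was -0.53 in daf-2;daf-16 (-0.83 to 1.61), or -0.35 without that array, against -4.32 in daf-2 (-5.55 to 0.67) and -1.60 in N2 (-2.32 to 3.41). These values are given side by side, with no test, since the genes were chosen for the daf-2 and N2 responses.

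**Figure D5:**
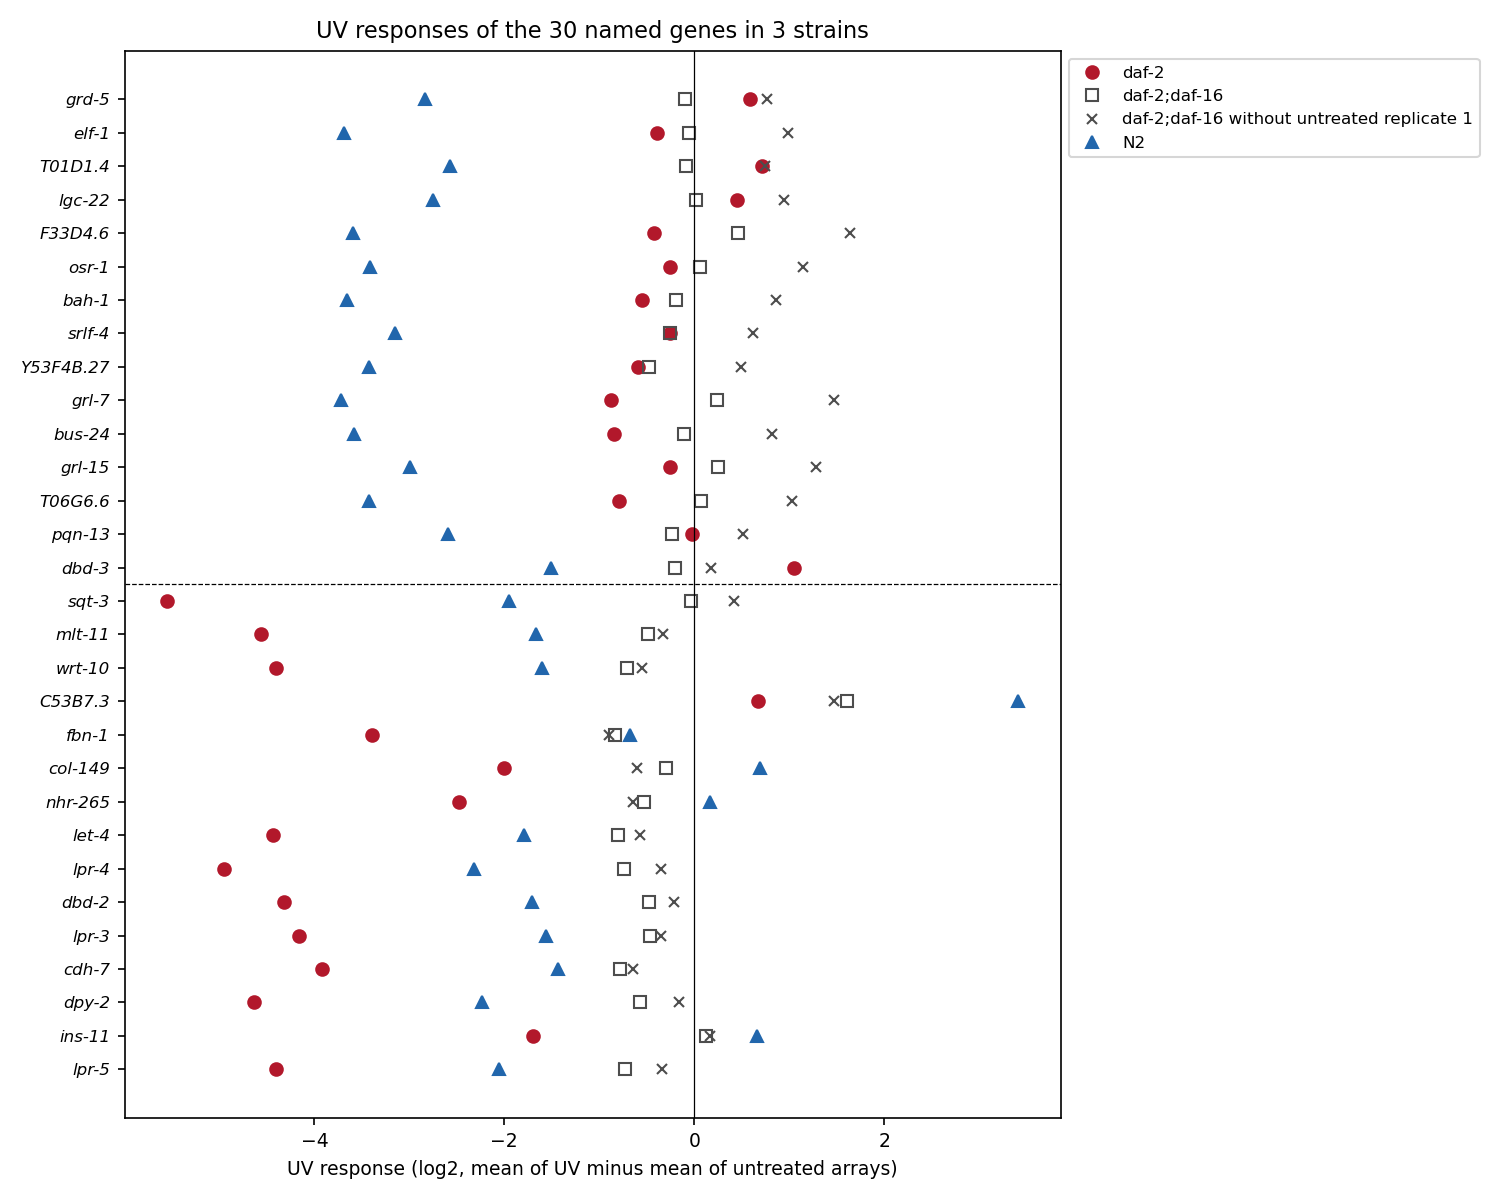
UV response in log2 units of the 15 genes with the most positive and the 15 with the most negative interaction in daf-2, in daf-2;daf-16 (with and without the first untreated array) and in N2. Among the first 15, N2 lies far below the mutants, and among the second, the median of daf-2 (-4.32) lies below those of daf-2;daf-16 (-0.53) and N2 (-1.60).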

How the data were processed

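Gene expression of synchronized larvae was measured on 36 single-colour Affymetrix arrays in 12 groups. The authors deposited log2 values; the submitters' processing notes name Affymetrix Power Tools, with no version or algorithm. The log2 unit was read from the range of 2.63 to 14.9, since no header names it. Array medians lay between 5.79 and 5.88, so the values were used as already normalized between arrays.

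From 22625 probe sets 77 controls were left out, leaving 22548, of which 20766 carried 1 symbol, 887 several and 895 none; 65 symbols were kept as annotated, and 6954 probe sets are shared between transcripts. Sharing can mix the signals of related genes. For counts of genes, the probe set with the highest mean represented each of 17118 genes.

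One limma 3.58.1 model in R 4.3.3 was fitted to all arrays, with 1 mean for each group, an intensity trend in the variance prior (eBayes) and 24 residual df. The interaction is a contrast of 4 group means, and p-values were adjusted by Benjamini and Hochberg over all probe sets. The code was tested on simulated data.

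Genes were named by rule: the 15 most positive and 15 most negative called interactions with 1 symbol and responses that do not overlap, the 2 most extreme called members of each of 50 lists in each direction, and genes of the insulin, GATA, excision repair and checkpoint lists. Other called list members were named after their values were seen. The members and lists were chosen with earlier results of these data known, and the lists were given no test of their own. Alternatives were other normalizations, variance models, sample sets and probe set filters, a replicate block, and each array left out in turn; leaving out 3 arrays of other groups (the third of UV-exposed daf-16, the first of untreated daf-2;daf-16 and the fourth of starved daf-2;daf-16) was chosen after seeing the data. A search for motifs in promoters was planned and is not analysed here.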

Additional observations from a re-analysis of the deposited data

Results flagged for a closer look

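The UV responses of daf-2 and N2 differed, by the test of their difference, for 1050 probe sets, and the 30 genes named for the largest differences are given here as log2 interactions. Higher in daf-2 than in N2 were grd-5 (3.42), elf-1 (3.30), T01D1.4 (3.29), lgc-22 (3.20), F33D4.6 (3.17), osr-1 (3.17), bah-1 (3.11), srlf-4 (2.88), Y53F4B.27 (2.84), grl-7 (2.84), bus-24 (2.74), grl-15 (2.73), T06G6.6 (2.64), pqn-13 (2.57) and dbd-3 (2.56). Lower in daf-2 than in N2 were sqt-3 (-3.60), mlt-11 (-2.89), wrt-10 (-2.80), C53B7.3 (-2.73), fbn-1 (-2.71), col-149 (-2.68), nhr-265 (-2.66), let-4 (-2.64), lpr-4 (-2.63), dbd-2 (-2.61), lpr-3 (-2.60), cdh-7 (-2.49), dpy-2 (-2.40), ins-11 (-2.36) and lpr-5 (-2.34). Groups of 3 arrays are too small for a test of single arrays that lie far from the others.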

How the results depend on the processing

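Of the 109 called gene values that the naming rule picked, none turned its direction, 74 stayed called under each of the 20 to 22 alternatives that held their probe set, and 35 lost the call under at least 1. Other called genes in the text were not put through the alternatives one by one. Among the 30 genes with the most extreme values, 4 lost it under some. The call was kept in 10 of 21 alternatives for grl-7, 15 of 22 for T06G6.6, 18 of 21 for pqn-13 and 20 of 22 for bus-24. The count of 1050 (471 higher, 579 lower) was 2618 (1400 and 1218) with array weights, 671 (310 and 361) without shared probe sets and 1732 (857 and 875) without the 3 arrays of other groups that stood apart. It was 1498 (748 and 750) in a model of the 12 arrays alone, and 1483 (742 and 741) with the replicate number as a block in that model. Without shared probe sets fewer were tested, and UV changed 3392 in daf-2 and 3966 in N2; the cause of the other moves was not tested. Leaving out each array in turn gave 678 to 1158 probe sets, 266 to 580 higher and 412 to 626 lower, with 4739 to 5724 for UV in daf-2 and 5239 to 7155 for UV in N2. The total was 678 without the third array of untreated N2, and the higher count was 266 without it, 295 without the second of untreated N2 and 306 without the third of UV-exposed daf-2. With array weights, with the 12 arrays alone or without the 3 arrays, ribosome biogenesis had 19, 15 and 15 higher members, replication 11, 10 and 11 lower and glutathione S-transferases 13, 11 and 11 lower. Same-numbered arrays did not deviate together (r from -0.3 to 0.37, over 0.1 in 3 of 18 pairs, and 6 of 12 arrays correlated best with their own number), so the number was taken only as a name. Probe sets whose signal lies near the low end of the scale limit which falls can be seen, and 3 arrays a group limit the precision.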
